A study of Schizosaccharomyces pombe with 8 samples.

Results

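Small nucleolar RNAs (snoRNAs) are short non-coding RNAs that work with proteins in the nucleolus, mainly on ribosomal RNA (rRNA). The genes described here were 7 of the 15 snoRNA genes listed with a Pac1-TAP peak in the fission yeast Schizosaccharomyces pombe. They were chosen from that list by taking every entry of class snoRNA gene and leaving out 8 others (snu3, snoU14, snR10, snu32, snR88, sno12, sno16 and snr79). The 7 genes were snoZ16, snoR02, snR30, snR90, snR3, sno20 and snoR61. They lay in 7 of the 88 listed peaks, and 12 further genes were listed with those peaks, 6 of them non-coding RNA (ncRNA) genes and 6 protein-coding genes. Having a peak was what chose the 7 genes, so their peak bounds and p-values are given as a description and carry no test.

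The list came from chromatin immunoprecipitation sequencing (ChIP-seq), in which DNA cross-linked to a protein is recovered and sequenced. The Pac1-TAP group had 2 immunoprecipitates (IP), set against the 2 matching inputs, chromatin from the same strain without enrichment. This strain carried Pac1 with a C-terminal TAP tag and a natMX6 marker in an h+ background with the alleles ade6-M216, leu1-32, ura4-D18 and his3-D1. It was grown untreated in Edinburgh minimal medium (EMM), and IP and input alike carried the tag. No library of an untagged strain was used here. The series also held 4 RNA polymerase II (RNAPII) and input libraries from strains treated with rapamycin, which were not analysed here. The authors had combined both IP replicates into 1 list with 1 p-value per peak, so from it no value per library, read depth or spread between replicates could be given, and the depth behind each peak is unknown.

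Pac1 is an RNase III, an endonuclease that cuts double-stranded stretches of RNA such as the stem of a hairpin. Its S. cerevisiae relative Rnt1 cuts snoRNA precursors. C/D box snoRNAs carry a C box (TGATGA in DNA letters) near the 5′ end and a D box (CTGA) near the 3′ end, and the stretch just before a D box pairs with rRNA to guide 2′-O-methylation. H/ACA box snoRNAs fold into hairpins followed by an H box (ANANNA) and an ACA near the 3′ end, and most guide pseudouridylation. Many snoRNAs are cut out of introns or from transcripts that hold several snoRNAs, whereas others have a promoter of their own.

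A peak overlapped 16 of the 66 snoRNA genes of the reference annotation by at least 1 bp (24.2%), against 155 of 6870 genes of all classes (2.26%). The count of 16 holds the 15 listed snoRNA genes and SPNCRNA.1394, the precursor of snR3, which the list gives as an ncRNA gene. Of the 7 genes, 6 lay wholly inside their peak, and the peak covered 92.2% of snR3. The listed p-value was highest for snR90 (5.22e-91), where the highest of all 88 peaks was 9.75e-59. Just outside the list, snr62 was the snoRNA gene without a peak that lay closest to one, at a distance of 212 bp.

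The 7 genes were of both kinds. The labels of the reference give snR90, snR3 and sno20 as H/ACA box snoRNAs, and snR30 is the H/ACA box RNA also called U17. The other 3 have no box class in their label. Both C/D motifs were found in snoZ16 and snoR61, and snoR02 held a CTGA, away from its 3′ end, but no TGATGA. A C box followed by a D box occurred in 2 of the 7 genes, 3 of the other 8 listed snoRNA genes and 21 of all 59 mature snoRNA genes (35.6%). The median length was 172 nt for the 7 genes, 177 nt for the other 8 and 95 nt for the 44 snoRNA genes with no peak.

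snoZ16 (SPSNORNA.10) lay on the plus strand of chromosome I, as the list gives it at I:1234963-1235045. Its 83 nt were a complete C/D unit, and it is shown because its boxes can be read in full, with capitals marking the C box, a run complementary to rRNA and both D boxes (sequences are from RefSeq, build ASM294v3, 5′ to 3′ along the strand of the gene).
snoZ16: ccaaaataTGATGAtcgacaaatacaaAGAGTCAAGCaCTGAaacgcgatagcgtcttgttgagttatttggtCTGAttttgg
The C box began at position 9 and the D boxes (CTGA) at positions 39 and 74, of which only the latter is near the 3′ end. The 6 nt at each end could pair with one another. The run of 10 nt before the first D box was complementary to nt 2502 to 2511 of the 25S rRNA.

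snoR02 (SPSNORNA.12), on the minus strand at I:2627988-2628071, had 84 nt and 1 D box motif (CTGA), at position 44. No CTGA was found near its 3′ end. The 15 nt that ended 1 nt before this box were complementary to nt 1245 to 1259 of the 18S rRNA. This was the longest such run among the 7 genes, and it is shown with the D box, both in capitals.
snoR02: TCAATCTGTCAATCCcCTGA
A run of at least 15 nt before a D box was found in 3 of the 59 mature snoRNA genes (5.08%) and a run of at least 10 nt in 18 (30.5%). By the known spacing of C/D guides, in which the nucleotide paired to the fifth position before the D box is the one methylated, the run of snoR02 points to nt 1248 of the 18S rRNA and that of snoZ16 to nt 2505 of the 25S rRNA. These are matches of letters, since methylation was not measured.

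snoR61 (SPNCRNA.445), on the minus strand at II:3874254-3874906, was listed as a gene of 653 nt, much longer than a usual C/D box snoRNA. In S. cerevisiae the RNA of this name guides methylation of the 25S rRNA. The reference divides the S. pombe gene into an exon of 109 nt, an intron of 336 nt with GT and AG ends and an exon of 208 nt. It held 2 stretches with the order of boxes of a C/D unit, and they are shown with the boxes in capitals. The first, positions 143 to 234 counted from the 5′ end of the gene, lay in the annotated intron and had ends that could form 7 consecutive base pairs.
snoR61, intron: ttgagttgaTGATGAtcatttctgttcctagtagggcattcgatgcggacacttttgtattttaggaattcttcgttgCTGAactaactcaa
The second, positions 495 to 584, lay in exon 2 and had ends that could form 3 base pairs. Here the capitals also mark an 11-nt run directly before a D box, complementary to nt 1160 to 1170 of the 25S rRNA, and the known spacing points to nt 1164. A further CTGA, at position 552, is left in lower case.
snoR61, exon 2: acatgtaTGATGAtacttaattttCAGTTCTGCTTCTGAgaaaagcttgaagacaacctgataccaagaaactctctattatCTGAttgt
No run of 8 nt or more preceded the D box of the unit in the intron.

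The H/ACA box genes were snR30 (SPSNORNA.20, plus strand, I:3394875-3395200), snR90 (SPSNORNA.42, minus strand, I:4937170-4937394), snR3 (SPSNORNA.35, minus strand, II:884166-884332) and sno20 (SPSNORNA.34, also named snR35, plus strand, II:2411190-2411361). In S. cerevisiae, snR30 is required for the processing of 18S rRNA, whereas snR35 guides pseudouridylation of the 18S rRNA and snR3 of the 25S rRNA. The last 30 nt of snR30 and snR3 are shown with the ACA in capitals, since the ACA places the 3′ end of an H/ACA box RNA.
snR30: cagttgggtaaaaccatacagttgACAttt
snR3: tgtacgcgagtgtcagaaggtccACAtatt
In snR30 the ACA stood exactly 3 nt from the annotated 3′ end and in snR3 4 nt from it. In sno20 and snR90 the last ACA was 49 nt and 38 nt from the listed end. The ACA stood at 3 or 4 nt from the end in 2 of the 7 genes and in 15 of the 59 mature snoRNA genes (25.4%). ANANNA was present in all 7 genes and in 88.1% of the 59, so it did not separate the classes. The end of snR90 was not settled by the annotation: the list gave a gene of 225 nt, whereas the reference gives the same 5′ end and a spliced gene with an exon of 195 nt, an intron of 186 nt and an exon of 107 nt. For the other 6 genes the list and the reference gave identical bounds.

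To determine where Pac1 lay relative to these genes, peak bounds were measured along the strand of each snoRNA gene. All 7 peaks reached past the 3′ end, by 335 to 476 bp, while 4 of them stopped within 27 bp of the 5′ end. The peak of snR3 (II:883690-884319) was 630 bp wide, began 13 bp inside the 5′ end of the gene and reached 476 bp past its 3′ end. At snoR61 the peak (II:3873909-3874914, 1006 bp) reached 8 bp past the 5′ end and 345 bp past the 3′ end. The peak of sno20 (II:2411169-2411713) was 545 bp wide, the narrowest of all 88, and reached 21 bp past the 5′ end and 352 bp past the 3′ end. These peaks thus began within 21 bp of the 5′ end of the snoRNA gene. At snR30 the peak (I:3394848-3395628, 781 bp) reached 27 bp past the 5′ end and 428 bp past the 3′ end.

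The other 3 peaks began farther upstream. The peak of snoR02 (I:2627530-2628194, 665 bp) reached 123 bp past the 5′ end and 458 bp past the 3′ end. At snR90 the peak (I:4936735-4937530, 796 bp) reached 136 bp past the 5′ end and 435 bp past the 3′ end. The peak of snoZ16 (I:1234476-1235380, 905 bp) reached 487 bp past the 5′ end, across the gene of another RNA described below, and 335 bp past the 3′ end. The p-value was listed as 0 for snoZ16 and snoR61, and it was 1.34e-294 for snR30, 3.37e-185 for snoR02, 2.48e-184 for sno20 and 1.75e-135 for snR3. A p-value of 0 stood beside 34 of the 88 peaks, so the genes at 0 cannot be ranked.

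**Figure D1:**
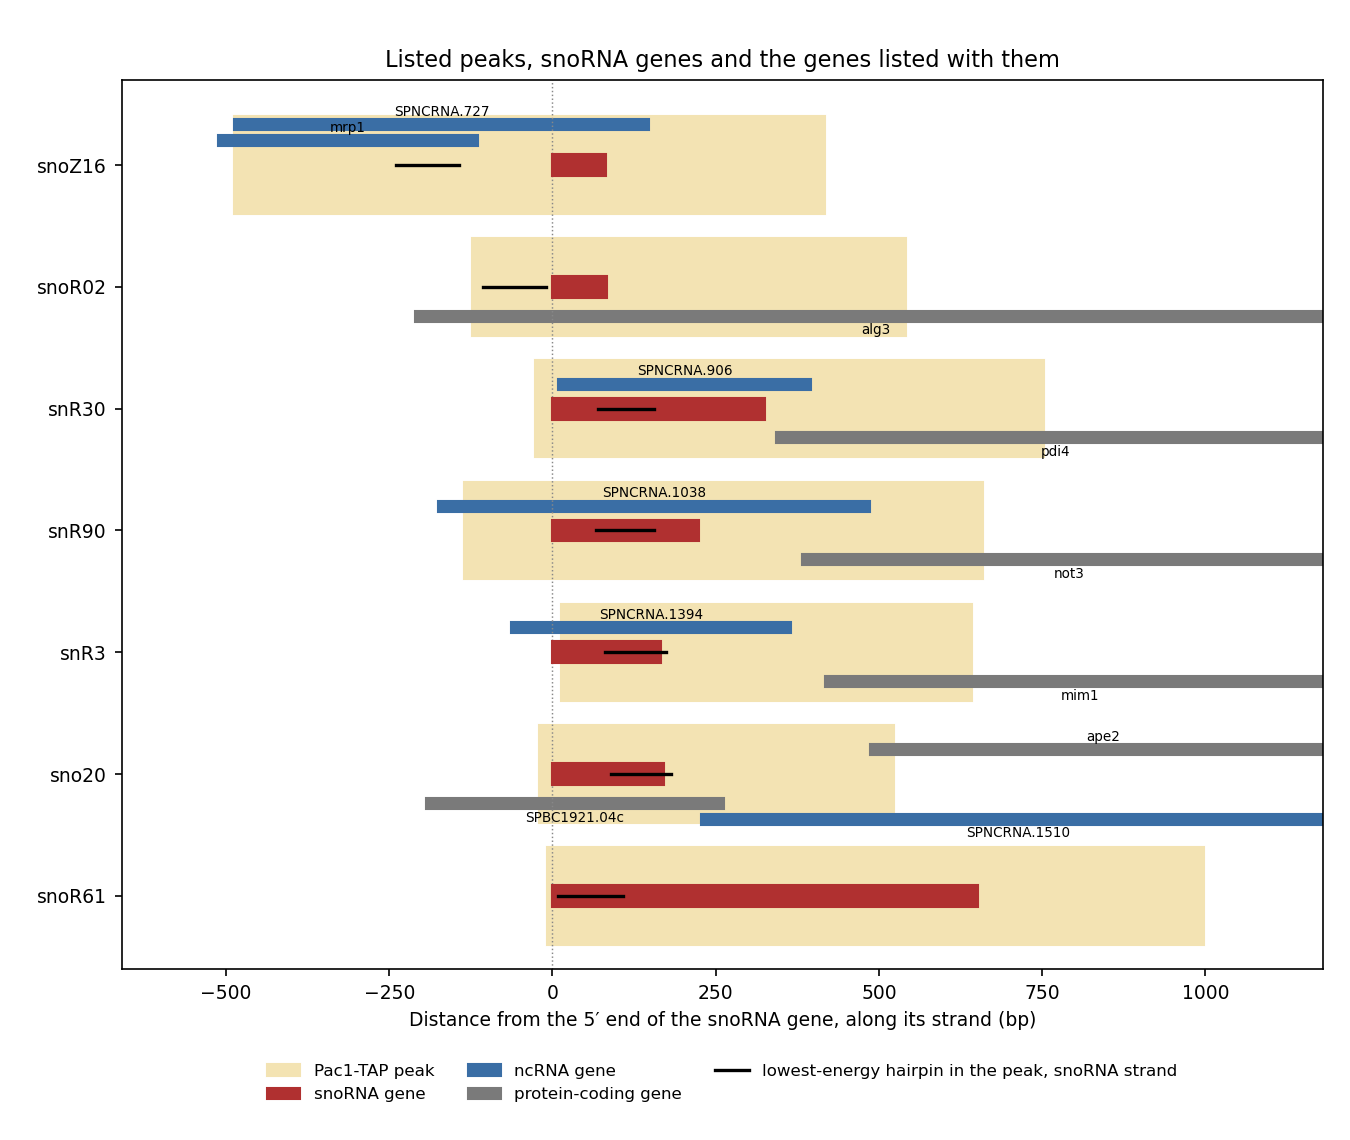
Map of the 7 snoRNA genes, each aligned at its 5′ end and drawn along its own strand (x axis, distance in bp). Each row shows the Pac1-TAP peak as a pale block, the snoRNA gene in red, genes listed with the same peak in blue (ncRNA) or grey (protein-coding), those on the strand of the snoRNA above it and those on the opposite strand below it, and as a black line the lowest-energy predicted hairpin on the snoRNA strand. Long genes are cut off at the edges. All 7 peaks reach 335 to 476 bp past the 3′ end of the snoRNA gene.

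The reach past the 3′ end had a median of 428 bp over the 7 genes, against 402.5 bp over the other 8 listed snoRNA genes, which ranged between -10 bp at snR10 and 736 bp at snR88. The peak reached past the 3′ end at 7 of 7 of these genes, 7 of the other 8 snoRNA genes and 116 of the 165 other listed gene and peak pairs (70.3%). The median reach past the 5′ end was 27 bp for the 7 genes and 202 bp for the other 8. The centre of the peak lay past the 3′ end of the gene at 5 of the 7 genes and at 5 of the other 8. The exceptions were snoZ16, whose peak was centred 76 bp before the midpoint of the gene, and snoR61, the 1 gene of the 7 that held the centre of its peak. Each of the 7 peaks was wider than its gene, so a reach past at least 1 end follows from the widths, and only the side is informative. The peaks were 545 to 1006 bp wide (median 781 bp), against a median of 1544 bp for the 81 peaks without one of these genes. The peaks of the other 8 listed snoRNA genes had a median width of 750.5 bp, so narrow peaks did not set the 7 apart.

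**Figure D2:**
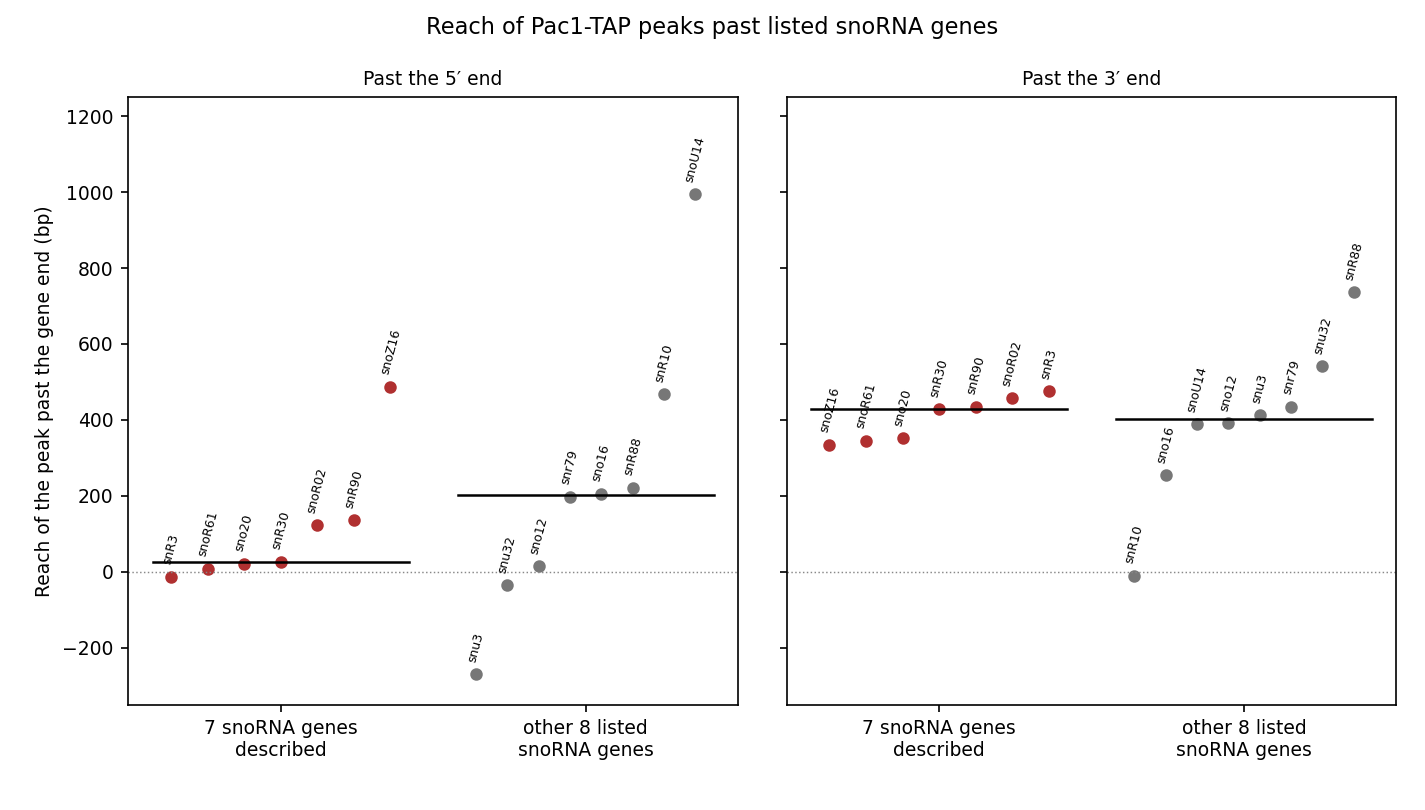
Reach of the peak past the 5′ end (left) and the 3′ end (right) of each listed snoRNA gene, in bp, for the 7 genes described and the other 8 listed snoRNA genes. Each point is 1 gene, lines are medians, and values below 0 mean that the peak ended inside the gene. On the right, the 7 genes sit between 335 and 476 bp and within the spread of the other 8.

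Next, the genes listed with the same peaks were placed as host, antisense or neighbour. A listed ncRNA on the same strand overlapped 4 of the 7 snoRNA genes, an opposite-strand gene held 2 of them whole, and snoR61 had no companion. Among the other 8 listed snoRNA genes, 1 had an overlapping listed transcript on its own strand and 3 had no companion. In bulk ChIP-seq a peak over several genes cannot be assigned to 1 of them, and ChIP-seq reads carry no strand of the transcript.

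The peak of snoZ16 also held mrp1 (SPNCRNA.82), the RNA of RNase MRP, a ribonucleoprotein that cuts precursor rRNA. mrp1 (I:1234451-1234849) lay upstream on the same strand and ended 113 bp before snoZ16. Of its 399 bp, 374 bp were in the peak (93.7%), which is 41.3% of the peak, whereas snoZ16 made up 9.17% of it. SPNCRNA.727 (636 bp) was listed as an ncRNA gene that spans from the first base of the peak to 66 bp past snoZ16, and so held all of snoZ16 and the same 374 bp of mrp1. The reference no longer has it as a gene and gives its name as a synonym of both mrp1 and snoZ16. Which of these RNAs the peak belongs to cannot be told apart. The reference also holds long non-coding RNAs that the list does not name, SPNCRNA.2541 on the opposite strand with 729 bp in this peak and SPNCRNA.2542 on the same strand with 247 bp, and at snoR02 SPNCRNA.3175 on the same strand with 73 bp.

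Host transcripts were listed for the H/ACA box genes snR3 and snR90, and a transcript of nearly the same extent for snR30. SPNCRNA.1394 (429 bp) held all of snR3, and the reference classes it as a snoRNA primary transcript. The peak covered 353 bp of it, began 76 bp inside its 5′ end and reached 277 bp past its 3′ end. SPNCRNA.1038 (663 bp) held all of snR90, and the peak covered 624 bp of it, began 39 bp inside its 5′ end and reached 172 bp past its 3′ end. SPNCRNA.906 (389 bp) shared 318 bp with snR30, lay wholly in the peak and ended 357 bp before the end of the peak. The names SPNCRNA.1038 and SPNCRNA.906 are synonyms of snR90 and snR30 in the reference. Measured against the outermost listed transcript on the strand of the snoRNA, the 7 peaks still reached past the 3′ end, by 172 to 458 bp (median 345 bp). Their reach past its 5′ end was -76 to 123 bp (median 8 bp).

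The region past the 3′ end of 3 of the H/ACA box genes was occupied by the ends of genes on the opposite strand. pdi4, which encodes a predicted protein disulfide isomerase, converged on snR30 and ended 16 bp from it, with 412 bp of pdi4 in the peak (52.8% of the peak). mim1, which encodes a predicted factor for assembly of the mitochondrial TOM complex, ended 250 bp from snR3 and had 226 bp in the peak. not3, which encodes a predicted subunit of the CCR4-Not deadenylase complex, ended 157 bp from the listed end of snR90 and had 278 bp in the peak. In the reference, snR90 reaches to 4936907, so not3, which ends at 4937012, overlaps it. In the reference the peaks held 0 bp of the coding spans of pdi4 and mim1 and 15 bp of that of not3. Of the 6 protein-coding companions, 5 were on the strand opposite the snoRNA gene, and the 3 just named had their 3′ end in the peak. Such neighbours were not particular to these genes. In the reference, the nearest non-overlapping gene past the 3′ end was an opposite-strand coding gene at snR30 and snR3. The same held at snR88, snoU14, sno16, snR10 and snu32. The nearest such gene was on the same strand at snu3, snr79 and sno12. For snR90 it was an opposite-strand ncRNA gene, 3022 bp away.

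snoR02 and sno20 were antisense to annotated protein-coding genes. snoR02 lay wholly inside alg3 (SPAC7D4.06c), which encodes a predicted mannosyltransferase of the glycan assembly pathway, as did the whole peak. In the reference, snoR02 lay 185 bp past the coding end of alg3, and 274 bp of the peak lay in the coding span. sno20 lay wholly inside SPBC1921.04c, which the list describes as dubious and of which 284 bp were in the peak. SPNCRNA.1510, an ncRNA of 1110 bp on the opposite strand that ended 55 bp past sno20, had 297 bp in the peak. ape2, which encodes a predicted aminopeptidase, was listed for 37 bp at its 5′ end, the smallest overlap of the 12, and its gene in the reference shared 0 bp with the peak. A snoRNA gene inside an opposite-strand coding gene was found in 2 of the 7 genes, 1 of the other 8 and 3 of the 44 with no peak (6.82%).

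None of the 7 genes was in an intron of another gene on its strand or within 500 bp of another mature snoRNA gene on that strand, and the same held for the other 8 listed snoRNA genes. Among the 44 snoRNA genes with no peak, 12 were in an intron and 8 were near another snoRNA gene, together 20 (45.5%), and 24 stood alone. The snoRNA neighbour closest to one of the 7 genes on the same strand was snR51b, 34233 bp from snoZ16. Standing alone in this sense was thus shared by all 15 listed snoRNA genes and did not set the 7 genes apart from the other 8. It takes no account of mrp1, 113 bp before snoZ16 on the same strand, or of the C/D units inside snoR61.

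To look for RNase III-like substrates, the lowest-energy unbranched hairpin was predicted in the 150 nt on each side of every mature snoRNA gene, on the strand of the gene. In the 5′ flank the energy had a median of -11.9 kcal/mol over the 7 genes, -17.15 kcal/mol over the other 8 and -13.2 kcal/mol over the 44 with no peak. The 5′ flank of snoR02 stood out, with -26.4 kcal/mol, 37 base pairs, a loop of 4 nt and 9 nt between the hairpin and the snoRNA. It ranked second of 59, after sno16 among the other 8 (-34.2 kcal/mol). The hairpin lay in the peak, in DNA that alg3 also spans. With a flank of 100 nt, which cuts off part of this hairpin, the value was -17.1 kcal/mol. The remaining 6 genes had 5′ values between -13.6 kcal/mol (sno20) and -6 kcal/mol (snoR61), within the range of the genes with no peak (-21.1 to -1.6 kcal/mol). For snoR61 both flanks lie outside the listed gene of 653 nt, not beside the C/D units in it. A hairpin inside that gene is described below.

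In the 3′ flank the median was -10.6 kcal/mol for the 7 genes, -8.8 kcal/mol for the other 8 and -11.1 kcal/mol for the 44 with no peak. The lowest values of the 7 were -15.9 kcal/mol at snR90 and -15.2 kcal/mol at both snoZ16 and snoR61, and the highest was -7.2 kcal/mol at sno20. None of the 7 had a 3′ hairpin at or below -20 kcal/mol, against 1 of the 59 mature snoRNA genes. With flanks of 250 nt, the lowest hairpin was -20.5 kcal/mol in the 3′ flank of snR3 and -21.3 kcal/mol in the 5′ flank of snR90. Flanks of this length were folded for the 7 genes only, so these values have no share over other snoRNA genes beside them. For snR90 the 3′ value was -10 kcal/mol from the end given in the list.

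**Figure D3:**
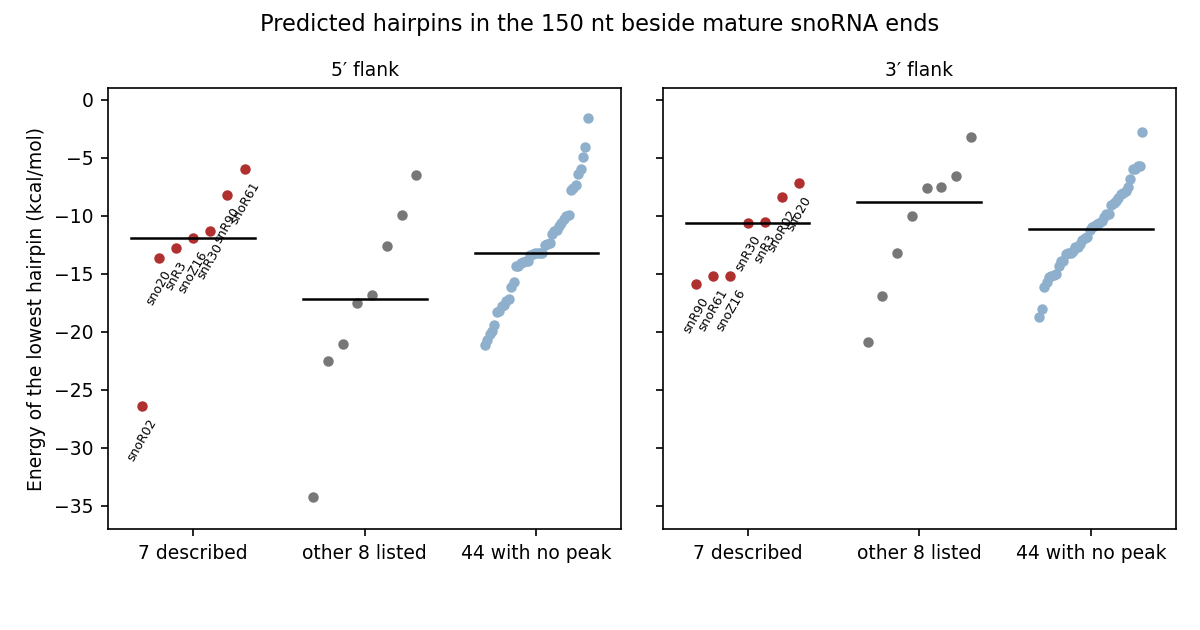
Energy of the lowest predicted unbranched hairpin (y axis, kcal/mol, lower is more stable) in the 150 nt before the 5′ end (left) and after the 3′ end (right) of mature snoRNA genes. Each point is 1 gene, lines are medians, and names are given for the 7 genes described. The flanks of snoR61 lie outside the whole listed gene, not beside the C/D units in it. snoR02 at -26.4 kcal/mol is the only one of the 7 below -20 kcal/mol in either flank of 150 nt. With 250 nt, folded for the 7 genes only and not drawn, snR90 (5′, -21.3 kcal/mol) and snR3 (3′, -20.5 kcal/mol) were also below it.

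In snoR61 the strongest hairpin was inside the listed gene. It took up positions 10 to 109, ended at the last base of exon 1, and was followed by the C/D-like unit of the intron 33 nt later. Its energy was -32.8 kcal/mol with 37 base pairs and a loop of 7 nt, the lowest of any hairpin inside the 59 mature snoRNA genes, although longer genes give more sequence to choose from. It is shown with the paired bases in capitals.
snoR61, exon 1: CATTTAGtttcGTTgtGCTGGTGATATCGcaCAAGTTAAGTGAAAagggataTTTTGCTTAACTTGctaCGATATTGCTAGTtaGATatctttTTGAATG
At snoZ16 the 113 bp between mrp1 and the snoRNA held a weaker hairpin of 49 nt and 18 base pairs (-11.9 kcal/mol), 41 nt before the snoRNA, shown in the same way.
snoZ16, spacer: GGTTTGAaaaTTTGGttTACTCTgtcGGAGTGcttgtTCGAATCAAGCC

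The 4 H/ACA box genes had their lowest hairpins in the mature RNA itself (snR30 and snR90) or across its 3′ end (snR3 and sno20). Within the peak and on the snoRNA strand, these were at positions 71 to 157 of snR30 (-28.9 kcal/mol), 67 to 156 of snR90 (-23.7 kcal/mol), 82 to 175 of snR3 (-26.7 kcal/mol) and 91 to 182 of sno20 (-24.5 kcal/mol). Over the whole peak and either strand, a scan chosen after seeing the data, the median was -26.4 kcal/mol for the 7 peaks, -23.4 kcal/mol for the 22 other peaks no wider than the widest of the 7 and -29.4 kcal/mol for all 81 other peaks. Predicted hairpins were not compared with cleavage, which was not measured in these data.

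The promoters were examined next, as these genes stood alone in the sense given above. TATAAA, the core of the TATA box, CAGTCACA, the HomolD box, and ACCCTACCC, the HomolE box, were searched on both strands from 250 bases before to 50 bases after the first base of each gene. HomolD and HomolE are promoter elements known from S. pombe ribosomal protein genes, where HomolD takes the place of a TATA box. CAGTCACA was found at 4 of the 7 genes, 1 of the other 8, 6 of the 44 with no peak (13.6%) and 179 of 6866 genes of all classes (2.61%). With the last base left out (CAGTCAC), the counts were 5 of 7, 3 of 8, 7 of 44 (15.9%) and 318 of 6866 (4.63%), the fifth gene being snR30. TATAAA was found at 6 of the 7 genes, all but snoZ16, 5 of the other 8, 19 of the 44 with no peak (43.2%) and 47.5% of all genes. ACCCTACCC was found at sno20 alone among the 15 listed snoRNA genes and in 1.14% of all genes.

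The 80 bases before 4 of the genes are shown because they hold these motifs close to the start, with the motifs in capitals. A TATAAA of snoR61 on the opposite strand, at -61, is left in lower case.
sno20: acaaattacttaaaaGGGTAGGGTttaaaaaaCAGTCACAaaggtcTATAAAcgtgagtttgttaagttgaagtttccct
snR30: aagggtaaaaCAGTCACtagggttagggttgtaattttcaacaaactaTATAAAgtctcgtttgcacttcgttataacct
snoR61: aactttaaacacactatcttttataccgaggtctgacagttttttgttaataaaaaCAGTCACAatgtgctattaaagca
snR3: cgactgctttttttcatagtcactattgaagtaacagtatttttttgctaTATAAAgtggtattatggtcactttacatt
These are II:2411110-2411189 plus strand, I:3394795-3394874 plus strand, II:3874907-3874986 minus strand and II:884333-884412 minus strand. sno20 had all 3 motifs, in the order HomolE (read on the opposite strand) at -65, HomolD at -48 and TATAAA at -34. snR30 had CAGTCAC at -70 and TATAAA at -32, snR3 had TATAAA at -30, and snoR61 had CAGTCACA at -24 with its nearest sense TATAAA at -99. At snR90 and snoR02 the motifs on the strand of the gene were farther away, with TATAAA at -146 and -154. On the opposite strand CAGTCACA stood at -237 and -176, and snoR02 also had TATAAA at -76. A sense TATAAA starting at -40 to -20 was found at 3 of the 7 genes, 1 of the other 8, 3 of the 44 with no peak (6.82%) and 313 of 6866 genes (4.56%). All positions are counted from the first base of the snoRNA gene, not from the start of a precursor. The listed host transcripts of snR3 and snR90 begin upstream of these TATAAA, which thus lie inside the transcripts.

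**Figure D4:**
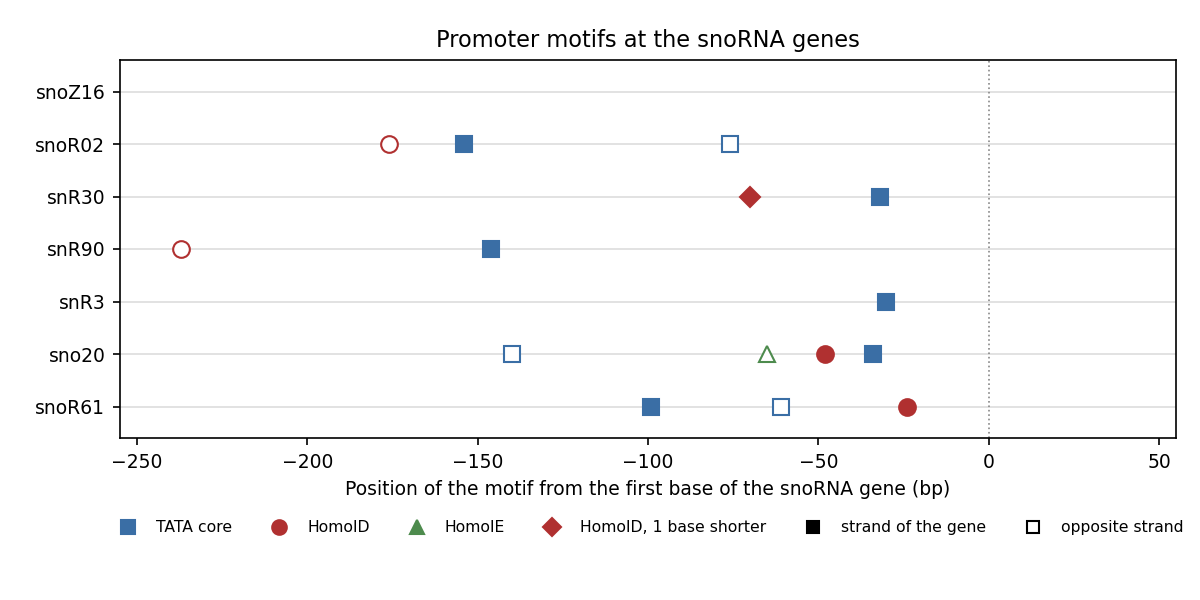
Position of promoter motifs at the 7 genes (x axis, bp from the first base of the snoRNA gene). Filled symbols are on the strand of the gene and open ones on the opposite strand, and a diamond marks the HomolD motif that is 1 base shorter. On the strand of the gene, the TATA core lies at -30 to -34 in snR30, snR3 and sno20. On that strand it lies at -99 in snoR61, -146 in snR90 and -154 in snoR02. On the opposite strand it lies at -61 in snoR61, -76 in snoR02 and -140 in sno20. In snR3 and snR90 it lies inside the listed host transcript, which begins farther upstream.

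The 5′ edge of the peak could be set beside these positions, a comparison made after both had been seen. The edge lay 5 bp downstream of the first base of a sense TATAAA at snR30, 10 bp at snR90, 13 bp at sno20, 31 bp at snoR02 and 43 bp at snR3. The distance was 91 bp at snoR61. At snR90 and snR3 the TATAAA lies inside the listed host transcript, which begins farther upstream. snoZ16, whose peak began farthest upstream, had no TATAAA in the 250 bases. Among the other 8 listed snoRNA genes, 5 had a sense TATAAA before the 5′ end given in the reference, at 19 bp (snu32) to 931 bp (snoU14) from the edge of the peak in either direction. Whether the promoter bears on the position of the peak was not tested.

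Genes that act with these RNAs were taken as lists. No peak was listed for any of 4 core proteins of C/D particles (such as fib1, the methyltransferase) or 4 core proteins of H/ACA particles (such as cbf5, the pseudouridine synthase). The same held for 11 gene names taken for proteins of RNase MRP and P. These were matched by name or synonym only, and whether each name stands for that protein in S. pombe was not checked. The 15 gene names for snoRNA 3′-end formation and decay matched 14 different genes of the reference. Of these, 1 had a listed peak, seb1, which encodes an RNA-binding factor of transcription termination. Against the 2.26% of all genes with a peak, these counts do not set the lists apart.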

How the data were processed

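ChIP-seq libraries of S. pombe comprised 2 Pac1-TAP IPs and their 2 inputs. Per the labels and the study's methods, the authors used Trimmomatic for trimming, HISAT2 for mapping to build ASM294v2, MACS2 for peaks of each replicate against its input, with duplicates kept, and MSPC to join the replicates. The deposited list gives peak and gene bounds, gene classes and the joint p-value of each peak from MSPC. No column held a value of a single library. The labels number the replicates, and the study describes them as biological.

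Overlaps and distances were computed in Python 3.11.15 from the listed bounds, taken as 1-based. Sequence, motifs and gene context came from the RefSeq genome and annotation of ASM294v3. Of 167 listed systematic names, 155 matched by name, 53 of them with identical bounds and 144 with an identical start or end. Long non-coding RNAs numbered from 2000 were left out of the shares, and 7 snoRNA primary transcripts were left out of the mature snoRNA genes. Hairpins were predicted with RNALfold (ViennaRNA 2.7.2, 37 degrees C, span of 100 nt), keeping structures with 1 loop. On simulated data the script found 50 of 50 planted hairpins, and 200 of 200 peak and gene pairs had the right overhangs. The 7 genes, the lists and the motifs were chosen with earlier results of these data known, and no tests were run. All 7 genes, every gene listed with their peaks and list genes with a peak were named. Other snoRNA genes named (snr62, snR51b, and those of the other 8) were chosen after their values were seen, as extremes or neighbours. Alternatives covered gene bounds, the p-value, the overlap, the C box, the flank and span of folding and the distance to other snoRNA genes.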

Additional observations from a re-analysis of the deposited data

How the results depend on the processing

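Of 38 values over 12 results recomputed with 1 choice changed, 28 stayed within 1.5 times the count or within 1 SD of the 7 genes, 10 moved and none changed sign. The median reach past the 3′ end (428 bp) became 352 bp with the gene bounds of the reference, 345 bp at p of at most 1e-200 and 345 bp against the outermost listed same-strand transcript. Only 3 of the 7 peaks had a p of at most 1e-200, so these counts were out of 3. All 3 reached past the 3′ end and 2 were centred past the midpoint. When a gene had to hold the peak centre, 5 snoRNA genes and 81 genes of all classes counted, and with all reference genes 239. The median 3′ hairpin became -15.6 kcal/mol with flanks of 250 nt, and a scan of the whole peak gave -26.4 kcal/mol in place of the 5′ flank. At snoR02 the 5′ hairpin was -17.1 kcal/mol with a flank of 100 nt and -27.7 kcal/mol with a span of 150 nt. The scan of whole peaks, the hairpins at list bounds, the same-strand transcripts, all reference genes, the shorter HomolD motif and the runs complementary to rRNA were tried after seeing the data.

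No paired analysis was possible because IP 1 and 2 share a single entry per peak. For the same reason no replicate was left out. The list used here holds no depth, peak height or fold enrichment, so from it neither the strength of association nor its error can be given. The list and the sequence come from different builds.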
